A study of Homo sapiens with 17 samples.

Results

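Paraspeckles are nuclear bodies built on the long noncoding RNA NEAT1, and the genes described here were NEAT1, its chromosomal neighbour MALAT1, and SFPQ, NONO and PSPC1, which encode the paraspeckle proteins of the DBHS family. They were chosen by name, as 5 of the 23368 genes in the count table, and all 5 passed the filter on low counts in every comparison. The assay, acRIP-seq, sequences poly(A) RNA recovered by an antibody against N4-acetylcytidine (ac4C), an acetylated base, here from HEK293T, a line derived from human embryonic kidney. The cells were labelled 293T with genotype WT, or 293T with siRNA against TARDBP (siTDP43), the gene of the RNA-binding protein TDP43. Each genotype had input libraries made without antibody, libraries of the ac4C pull-down (IP) and libraries of a mock pull-down with immunoglobulin G (IgG). Each of the 6 groups held 3 libraries except WT IgG, which held 2, giving 17 libraries in all. The labels name no control siRNA for the WT cells, so transfection, knockdown and any difference in handling between the genotypes cannot be told apart. Nothing in the labels says that replicates came from separate cultures, so the p-values measure the spread between these libraries, which may be technical.

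NEAT1 is the scaffold on which paraspeckles assemble, and it is made as a short polyadenylated form and a long form that start at the same site. TDP43 binds UG-rich RNA, and NEAT1 and MALAT1 are both among its known RNA partners. The long NEAT1 form and MALAT1 end without a poly(A) tail, at sites cut by RNase P, and an A-rich tract encoded in the genome lies at the end of MALAT1. SFPQ and NONO form dimers with each other and with PSPC1 and bind NEAT1. MALAT1 itself gathers in nuclear speckles, the neighbouring bodies rich in splicing factors.

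The NEAT1 row covered 3735 bases of chromosome 11 in hg19, from 65190269 to 65194003 on the plus strand, as 1 exon. GENCODE gives NEAT1 22767 bases, so the row held 16.4% of the gene, and reads of the short form and of the start of the long form could not be told apart in it. The MALAT1 row lay 71229 bases downstream on the same strand, from 65265233 to 65273939, also as 1 exon, of 8707 bases. An antisense RNA, TALAM1, overlaps 7157 of those bases, had no row of its own, and could not be separated from MALAT1, since no source used here says whether strand was used in counting. SFPQ was counted on chromosome 1 (35649201 to 35658743, minus strand) over 10 exons with 3073 bases, NONO on chromosome X (70503042 to 70521018, plus strand) over 13 exons with 3218 bases, and PSPC1 on chromosome 13 (20248892 to 20357159, minus strand) over 11 exons with 3142 bases. GENCODE lists 1 pseudogene of SFPQ, 1 of NONO and 2 of PSPC1, and reads that fit a gene and its copy equally were not counted, because the authors kept uniquely aligned reads.

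The stretches below, from the GRCh37 genome, show the features of the 2 noncoding RNAs that bear on TDP43 binding and on selection by oligo(dT), each 5′ to 3′ on the plus strand. In the windows with the most TGTG, the capitals mark TGTG, part of the UG repeat that TDP43 binds. In the last 60 bases of the NEAT1 row the capitals mark AATAAA, the polyadenylation signal, and in MALAT1 they mark the longest run of A.
NEAT1 TGTG window, chr11:65192104-65192163: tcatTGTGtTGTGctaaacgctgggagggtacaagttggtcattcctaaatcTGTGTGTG
NEAT1 row end, chr11:65193944-65194003: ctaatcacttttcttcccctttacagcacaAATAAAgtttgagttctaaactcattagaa
MALAT1 TGTG window, chr11:65270507-65270566: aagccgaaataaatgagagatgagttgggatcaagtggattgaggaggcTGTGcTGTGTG
MALAT1 A run, chr11:65273549-65273601: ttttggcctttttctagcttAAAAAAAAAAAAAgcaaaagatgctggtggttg

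TGTGTG, searched on the transcribed strand with overlapping matches counted, occurred 5 times in NEAT1, which is 1.34 per exon kilobase and more than in 90.8% of the 10141 rows with a mean of at least 100 counts. It occurred 4 times in MALAT1 (0.46 per kilobase), 2 times in NONO (0.62), 1 time in PSPC1 (0.32) and not at all in SFPQ, beside a median of 0.38 over those rows, of which 67.6% held it. TGTGCG, a motif that the study linked to TDP43, occurred 2 times in MALAT1 and 1 time each in NEAT1 and NONO, and 31.2% of the rows held it. TCCCAGCT, a motif that the study linked to ac4C, was in none of the 5 rows and in 19.97% of all those rows. The MALAT1 run of 13 A had a match of that length or more in 10.4% of the rows, and the longest run in NEAT1 was 5. AATAAA lay in the last 60 bases of 66.7% of 10135 rows, NEAT1 among them. These matches describe letters in the counted exons and say nothing of binding in these cells.

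Library totals ranged from 27718784 to 36583436 counts for the WT inputs, from 19615316 to 21066215 for WT IP, and were 9022250 and 9466855 for WT IgG. The siTDP43 inputs had 24542434 to 31030950 counts, the siTDP43 IP libraries 8610070 to 15736165, and siTDP43 IgG, the shallowest group, 3013989 to 3436811. Values below are CPM, counts per 1000000 counts of the library, scaled by TMM, a normalization that assumes most genes do not move, on a common scale over the 17 libraries. TARDBP, the gene targeted, was 153 ± 3.86 CPM (SD, n = 3) in WT input and 102 ± 3.67 in siTDP43 input, a log2 change of -0.57 (SE 0.05). Its RNA was therefore lower in every siTDP43 input library but still present. Of 10 markers of HEK293 cells, 7 were at 1 CPM or more in every input library, and PAX2 and LHX1, kidney lineage factors, were near or below 1. Their summed level was 1272 CPM in WT and 665 in siTDP43 input. All 8 markers of blood, liver, endothelium and fibroblasts were under 1 CPM in every input library.

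In the inputs, all 5 genes changed between the genotypes, the 2 noncoding RNAs downward and the 3 DBHS genes upward. NEAT1 measured 8.73, 8.17 and 8.41 CPM in WT input replicates 1 to 3 and 3.53, 2.77 and 3.83 in siTDP43 input. MALAT1 measured 107, 106 and 110 CPM in WT and 25.4, 22.7 and 23.2 in siTDP43. Neither gene's libraries overlapped between the genotypes, and the share of all genes without such overlap was not counted. Of all genes, 38.6% were called higher and 40.6% lower in the inputs, so the lack of overlap is not read as particular. NEAT1 was 2.48-fold lower in siTDP43 (log2 change -1.31, SE 0.16, adjusted p = 1.03e-08) and MALAT1 4.51-fold lower (log2 change -2.17, SE 0.06, adjusted p = 1.16e-24). The NEAT1 row held only 70 to 112 counts a library in siTDP43 input, against 264 to 321 in WT. In bulk RNA, fewer cells that express a gene and less RNA per cell cannot be told apart.

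PSPC1, whose protein joins paraspeckles through NONO, had the largest rise of the 5: 34.3, 35.3 and 36.8 CPM in WT input and 147, 150 and 152 in siTDP43 input. That is 4.23-fold (log2 change 2.08, SE 0.05, adjusted p = 9.46e-26), a rise larger than that of 97.1% of the 14036 genes tested. NONO, an RNA-binding protein of splicing and transcription as well as of paraspeckles, measured 453, 444 and 461 CPM in WT and 879, 888 and 888 in siTDP43, a 1.96-fold rise (log2 change 0.97, SE 0.04, adjusted p = 3.27e-21). SFPQ, the third DBHS gene and like NONO needed for paraspeckles to form, measured 22.6, 21.7 and 22.0 CPM in WT and 26.05, 30.01 and 30.03 in siTDP43. Its rise was the smallest, 1.30-fold (log2 change 0.38, SE 0.08, adjusted p = 7.40e-05). Over all genes, 38.6% were called higher and 40.6% lower in siTDP43 input, so passing this test was common. With limma on log2(FPKM + 1), where FPKM is CPM per exon kilobase, the NEAT1 change was -0.79, on a scale that understates changes of low genes.

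**Figure D1:**
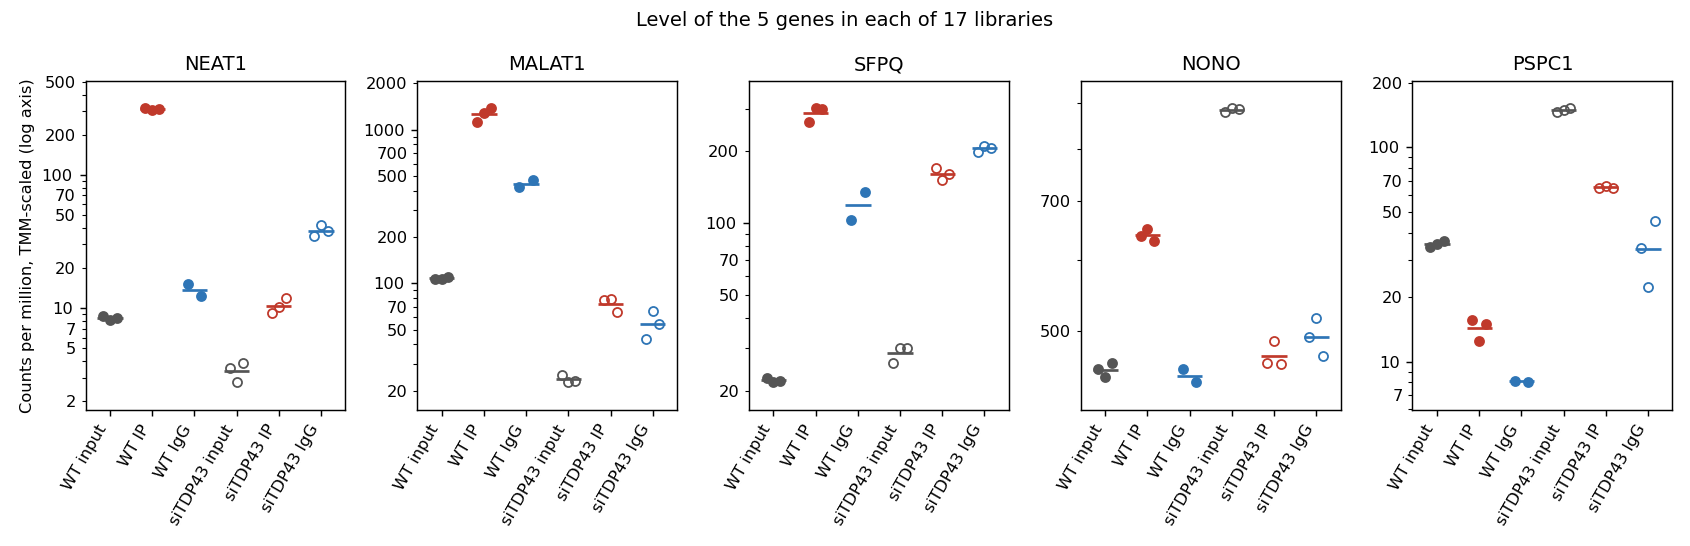
TMM-scaled CPM (log axis, with its own range in each panel) of the 5 genes in each library of the 6 groups. Points are libraries, lines are group means, filled points are WT and open points siTDP43. NEAT1 is highest in WT IP, at 309 to 315, and NONO and PSPC1 are highest in siTDP43 input, at 879 to 888 and 147 to 152.

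In WT cells NEAT1 was far more abundant in the ac4C pull-down than in either control. It measured 315.3, 308.9 and 309.5 CPM in IP, against 8.17 to 8.73 in input and 15.1 and 12.3 in the 2 IgG libraries. The 3 IP values lay close together and far above both controls. NEAT1 was 37.1-fold higher in IP than in input (log2 change 5.21, SE 0.07, adjusted p = 5.83e-26), rank 259 of the 14751 genes tested, and 22.3-fold higher than in IgG (log2 change 4.48, SE 0.09, adjusted p = 1.00e-21). Its IgG level was 1.67-fold that of input (log2 change 0.74, SE 0.11), below the fold of 2 that enrichment required beside an adjusted p under 0.05.

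MALAT1 measured 1122, 1286 and 1372 CPM in WT IP, 107, 106 and 110 in input, and 420 and 466 in IgG. IP was 11.7-fold above input (log2 change 3.55, SE 0.07, adjusted p = 1.67e-23), and IgG itself was 4.19-fold above input (log2 change 2.07, SE 0.07). Against IgG the IP level was 2.80-fold (log2 change 1.49, SE 0.07, adjusted p = 3.79e-15). MALAT1 thus passed the fold of 2 in the control pull-down over input, which NEAT1 did not. With the trend of counts with GC content removed from each library, NEAT1 in WT IgG over input was 1.49 on the log2 scale and was called.

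SFPQ, like MALAT1, was higher in both WT pull-downs than in input. It measured 264, 302 and 300 CPM in IP, 22.6, 21.7 and 22.0 in input, and 103 and 134 in IgG. IP was 13.1-fold above input (log2 change 3.72, SE 0.08, adjusted p = 4.02e-22) and 2.40-fold above IgG (log2 change 1.26, SE 0.09, adjusted p = 3.19e-12), while IgG was 5.47-fold above input (log2 change 2.45, SE 0.09). With the trend of counts with GC content removed from each library (GC trend), the log2 change over IgG was 0.49 and no longer reached a fold of 2.

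NONO showed little difference between the WT libraries. It measured 639, 651 and 631 CPM in IP, 444 to 461 in input, and 453 and 438 in IgG. IP was 1.42-fold above each control (log2 change 0.51, SE 0.04, over input and 0.50, SE 0.05, over IgG), under the fold of 2. With the GC trend removed the value over IgG turned to -0.23. IgG and input differed by 0.00 on the log2 scale (SE 0.05, 95% interval -0.10 to 0.10, adjusted p = 0.944).

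PSPC1 was lower in both WT pull-downs than in input. It measured 15.6, 12.5 and 15.1 CPM in IP and 8.15 and 8.03 in IgG, against 34.3 to 36.8 in input. IP was 2.45-fold below input (log2 change -1.29, SE 0.10, adjusted p = 3.90e-11) and IgG 4.30-fold below (log2 change -2.10, SE 0.15, adjusted p = 3.08e-12). IP over IgG was 1.76-fold (log2 change 0.81, SE 0.15), which did not reach a fold of 2.

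Counted together, 3 of the 5 genes were called higher in WT IP than in input and 1 lower, beside 30.2% and 27.3% of all genes. Over IgG, 3 were called higher, beside 35.2% higher and 17.8% lower of all genes. In IgG over input 2 were called higher and 1 lower, beside 24.4% and 36.6%. NEAT1, MALAT1 and SFPQ were above both controls, as were 15.6% of the genes tested. The study also set IP against both controls to call ac4C. Its Results describe another test, with folds of FPKM values, while its Methods name DESeq2 and a higher fold over IgG than over input. Its Results ask for a higher fold over IgG than the 2 used here only for genes it named highly acetylated. These calls are therefore not the study's.

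In siTDP43 cells the order of the NEAT1 libraries was different. NEAT1 measured 9.21, 10.1 and 11.96 CPM in siTDP43 IP, 2.77 to 3.83 in input, and 34.9, 41.7 and 37.7 in IgG, so that every IgG library lay above every IP library. IP was 3.40-fold above input (log2 change 1.77, SE 0.22, adjusted p = 1.95e-07) but 3.86-fold below IgG (log2 change -1.95, SE 0.22, adjusted p = 8.02e-08). IgG was 13.1-fold above input (log2 change 3.71, SE 0.23, adjusted p = 1.19e-12). These NEAT1 values rest on 96 to 124 counts a library in IP and 95 to 106 in IgG. If both mates of a fragment were counted, the fragments were fewer than that.

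MALAT1 measured 77.3, 78.7 and 65.1 CPM in siTDP43 IP, 22.7 to 25.4 in input, and 43.3, 66.3 and 54.1 in IgG. IP was 3.46-fold above input (log2 change 1.79, SE 0.13, adjusted p = 1.71e-11) and IgG 2.68-fold above input (log2 change 1.42, SE 0.14). The IP and IgG libraries overlapped, with a log2 difference of 0.37 (SE 0.14, adjusted p = 0.0226) that did not reach a fold of 2 and turned to -0.55 with the GC trend removed. With total count scaling MALAT1 in IgG over input was 0.87 on the log2 scale and lost its call.

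SFPQ measured 170, 151 and 161 CPM in siTDP43 IP, 26.05 to 30.03 in input, and 199, 211 and 206 in IgG. IP was 6.25-fold above input (log2 change 2.64, SE 0.09, adjusted p = 2.14e-17), and IgG 8.38-fold above input (log2 change 3.07, SE 0.09). The SFPQ level in IP was 1.34-fold below IgG (log2 change -0.42, SE 0.09), under the fold of 2.

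NONO in siTDP43 measured 460, 487 and 459 CPM in IP, 879 to 888 in input, and 492, 518 and 469 in IgG. IP was 1.70-fold below input (log2 change -0.76, SE 0.06) and IgG 1.53-fold below (log2 change -0.62, SE 0.06), neither past a fold of 2, and IP and IgG overlapped. With total count scaling both values were called, at -1.10 and -1.16, and with the GC trend removed the NONO value in IgG over input was 0.10.

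PSPC1 in siTDP43 measured 64.4, 66.3 and 65.0 CPM in IP, 147 to 152 in input, and 33.8, 22.3 and 45.2 in IgG, where its libraries spread most widely of the 5 genes relative to their mean. IP was 2.06-fold below input (log2 change -1.04, SE 0.11, adjusted p = 3.07e-08), and IgG 3.75-fold below (log2 change -1.91, SE 0.14). With the GC trend removed these were -0.77 and -0.96 and under the fold of 2, as was the first at -0.96 over genes with a mean of at least 50 counts. IP was 1.82-fold above IgG (log2 change 0.87, SE 0.15), and 1.13 on the log2 scale, past the fold of 2, without siTDP43 IgG replicate 3.

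In siTDP43 IP over input, 3 of the 5 genes were called higher and 1 lower, beside 26.8% and 25.4% of all genes. Over IgG, 1 was called lower, beside 34.0% higher and 15.0% lower of all genes. In IgG over input, 3 were called higher and 1 lower, beside 24.7% and 41.0%. In siTDP43 cells, 0 of the 5 genes were above both controls by edgeR, beside 10.3% of the 12746 genes tested. DESeq2 also gave 0, and an unadjusted p under 0.05 with no fold required gave 1, MALAT1.

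The difference in enrichment between the genotypes was tested directly, as an interaction over the 17 libraries. The enrichment of NEAT1 over input was 12.2-fold lower in siTDP43 than in WT (log2 change -3.61, SE 0.17, adjusted p = 4.52e-20). Over IgG it was 83.5-fold lower (log2 change -6.38, SE 0.19, adjusted p = 2.61e-25), rank 1080 from the lowest of 15165 genes. NEAT1 thus had the largest loss of enrichment of the 5 genes on either control.

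MALAT1 lost 3.76-fold of its enrichment over input (log2 change -1.91, SE 0.12, adjusted p = 7.70e-17) and 2.09-fold over IgG (log2 change -1.06, SE 0.14, adjusted p = 3.37e-08). SFPQ lost 2.33-fold over input (log2 change -1.22, SE 0.12, adjusted p = 2.49e-11) and 3.10-fold over IgG (log2 change -1.63, SE 0.13, adjusted p = 7.10e-14). NONO moved from slightly above input in WT to below it in siTDP43, a change of -1.42 on the log2 scale (SE 0.08, adjusted p = 7.91e-19), and by -0.60 over IgG (SE 0.08, adjusted p = 5.77e-08). For PSPC1 the fitted change was 0.10 against input (SE 0.15, adjusted p = 0.572). Against IgG the PSPC1 value was 0.11 (SE 0.23, adjusted p = 0.803), and a change in either direction was not detectable at this spread.

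The enrichment of 4 of the 5 genes therefore fell on each control, beside 31.5% of all genes called higher and 36.3% lower over input, and 34.9% and 25.9% over IgG. The comparisons share libraries, so the same siTDP43 IP values enter both. With the GC trend removed the PSPC1 change over input was 0.35 and was called (adjusted p = 0.041).

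**Figure D2:**
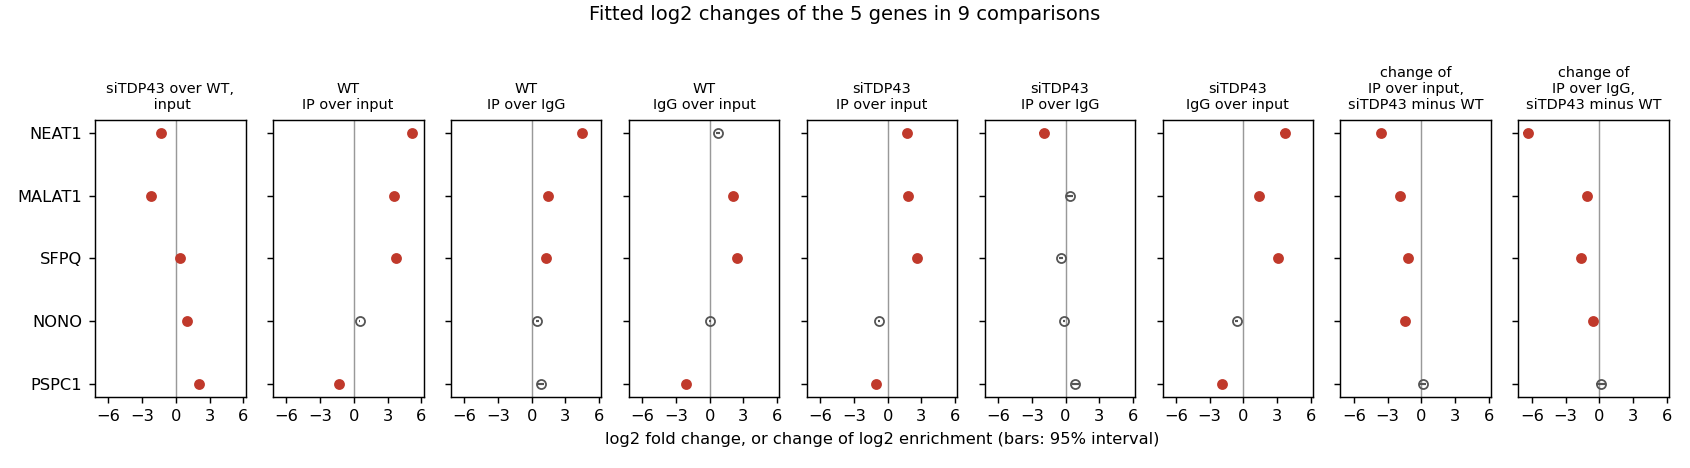
Fitted log2 fold changes of the 5 genes in the 7 comparisons of groups and the 2 comparisons of enrichment between genotypes, with 95% intervals as bars. Filled points passed the test of that panel, open points did not. NEAT1 goes from 4.48 in WT IP over IgG to -1.95 in siTDP43 IP over IgG, while PSPC1 stays near 0 in the 2 panels on the right.

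Levels per exon length, written FPKM and computed here as the scaled CPM per exon kilobase, allow for the different lengths of the 5 rows. They do not allow for unequal recovery by oligo(dT) of RNAs with and without a poly(A) tail. The place of NEAT1 and MALAT1 beside the mRNAs therefore describes the libraries, not abundance in the cells. NONO had the highest FPKM in all 6 groups, from 138 in WT IgG to 275 in siTDP43 input. In WT input NONO (141 FPKM) was followed by MALAT1 (12.4), PSPC1 (11.3), SFPQ (7.19) and NEAT1 (2.26), with no overlap between neighbours. In siTDP43 input the order was NONO (275), PSPC1 (47.6), SFPQ (9.34), MALAT1 (2.73) and NEAT1 (0.90), also without overlap, with MALAT1 now below PSPC1 and SFPQ.

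In WT IP, MALAT1 (145 FPKM) came next to NONO (199), and SFPQ (93.9, range 85.9 to 98.2) and NEAT1 (83.3, range 82.7 to 84.4) lay close together without overlap, while PSPC1 was at 4.58. In WT IgG the order was NONO (138), MALAT1 (50.9), SFPQ (38.6), NEAT1 (3.68) and PSPC1 (2.57). In siTDP43 IP it was NONO (146), SFPQ (52.3), PSPC1 (20.8), MALAT1 (8.46) and NEAT1 (2.79). In siTDP43 IgG, NONO (153) and SFPQ (66.8) led, and PSPC1 (7.08 to 14.4) overlapped with NEAT1 (9.34 to 11.2) and MALAT1 (4.97 to 7.62). NEAT1 was thus below MALAT1 in 5 groups and above it in siTDP43 IgG alone.

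Ratios of a pair of genes within a library do not depend on how libraries are scaled to each other. NEAT1 per length was 19.0, 17.9 and 17.8% of MALAT1 in WT input and 32.5, 28.4 and 38.5% in siTDP43 input, 1.81-fold higher after knockdown. In WT IP it was 65.5, 56.0 and 52.6%, and in siTDP43 IP 27.8 to 42.8%. So NEAT1 was enriched 3.17-fold more than MALAT1 by the WT pull-down, with no overlap, whereas siTDP43 IP and input overlapped (log2 difference 0.00). In IgG the ratio was 8.39 and 6.17% in WT and 188, 146 and 163% in siTDP43, a difference that was not tested.

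SFPQ per length was 4.99 to 5.23% of NONO in WT input and 3.10 to 3.54% in siTDP43 input, 1.51-fold lower. It rose to 43.3 to 49.8% in WT IP and 32.5 to 38.7% in siTDP43 IP, that is 9.22-fold and 10.6-fold above the input of the same genotype. PSPC1 per length was 7.75 to 8.17% of NONO in WT input and 17.1 to 17.6% in siTDP43 input, 2.16-fold higher. In IP it was 1.97 to 2.50% in WT and 14.0 to 14.5% in siTDP43, 6.23-fold higher. With 3 libraries against 3, the smallest p of the two-sided exact permutation test is 0.1, which 11 of the 12 comparisons of these ratios reached (0.109 after adjustment), so the design cannot reach 0.05. The remaining comparison, NEAT1 to MALAT1 in siTDP43 IP over input, gave p = 1.0 in that exact test.

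**Figure D3:**
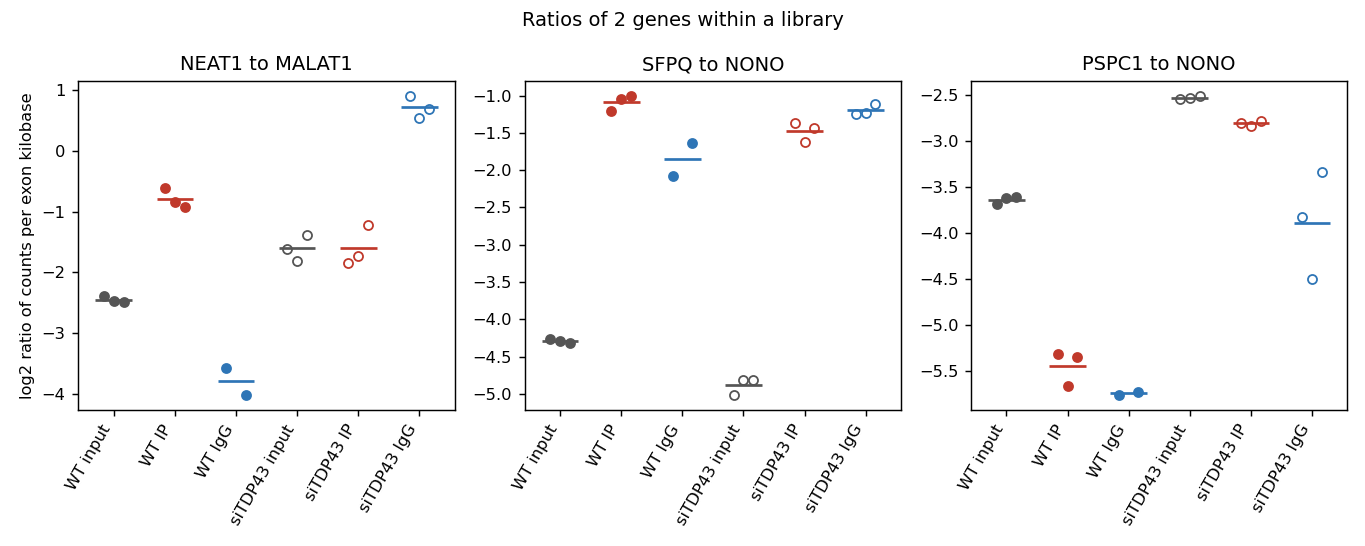
The log2 ratio of counts per exon kilobase within each library, for NEAT1 to MALAT1, SFPQ to NONO and PSPC1 to NONO, by group. Points are libraries, lines are group means, filled points are WT and open points siTDP43, and 0 marks equal levels per length. NEAT1 exceeds MALAT1 in the siTDP43 IgG libraries alone, and SFPQ to NONO is higher in the IP and IgG groups than in either input.

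Across the 17 libraries, which fall into 6 groups and so are not independent points, the level of NEAT1 on the scale log2(CPM + 1) followed that of MALAT1 (Pearson r = 0.789) and SFPQ (0.767). MALAT1 and PSPC1 ran in opposite directions (-0.854), and NONO and PSPC1 together (0.504). Among 10140 genes, those most like NEAT1 were HNRNPU-AS1 (r = 0.984), BOD1L (0.979) and LINC00173 (0.972). BOD1L averaged 7.31 CPM in WT input, 1085 in WT IP and 5.36 in siTDP43 IP. The genes most like MALAT1 were SLC2A4RG (0.984), TBL1X (0.981) and FASN (0.980), the fatty acid synthase. USF2 (0.990), a transcription factor, DUS1L (0.983) and HOXD10 (0.981) were most like SFPQ. TSPYL1 (0.949), GRB2 (0.924), a signalling adaptor, and URB2 (0.906) were most like NONO, and NSF (0.993), an ATPase of vesicle fusion, TMEM50B (0.983) and HS6ST2 (0.983) most like PSPC1. PSPC1 and NSF stood at 35.4 and 38.4 CPM in WT input and at 150 and 140 in siTDP43 input.

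A list of 35 further genes of paraspeckle proteins, TARDBP among them, gave 34 tested in the inputs. Of these, 21 rose and 11 fell in siTDP43, beside 38.6% and 40.6% of all genes. TARDBP, the target of the siRNA, is counted among the 11 that fell. The list had a median log2 change of 0.45 beside -0.05 over all genes. RBM3, a cold-inducible RNA-binding protein, rose from 278 to 876 CPM (log2 change 1.66) and SRSF10, a splicing regulator, from 100 to 313 (1.65). AKAP8L, a nuclear matrix protein, fell from 13.4 to 1.08 CPM (-3.62). In WT IP over input 10 of 34 rose and 6 fell, with a median of 0.07. Over all genes 30.2% rose and 27.3% fell, so the share that rose was near that of all genes. TAF15, an RNA-binding protein, rose from 16.2 CPM in input to 863 in IP (5.74), while RBM7, of the nuclear exosome targeting complex, fell from 38.4 to 2.89 (-3.72) and HNRNPK from 1128 to 333 (-1.75). Over WT IgG, 7 rose and 6 fell, beside 35.2% and 17.8% of all genes. In WT IgG over input 12 rose and 6 fell, beside 24.4% and 36.6%.

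In siTDP43 IP over input 7 of 33 paraspeckle protein genes rose and 11 fell (median -0.52), beside 26.8% and 25.4% of all genes. DAZAP1 rose from 11.8 to 149 CPM (log2 change 3.81) and TAF15 from 4.47 to 39.1 (3.28), while RBM7 fell by 2.15 and ZNF335 by 1.93 on the log2 scale. Over siTDP43 IgG 2 rose and 5 fell, beside 34.0% and 15.0% of all genes. In IgG over input 8 rose and 6 fell, beside 24.7% and 41.0%. Set against input, 18 of 34 genes were less enriched in siTDP43 than in WT and 6 more (median -0.43 beside -0.19 over all genes). Of all genes, 36.3% were less enriched and 31.5% more. Over IgG the enrichment of the list was higher for 14 and lower for 14, beside 34.9% and 25.9% of all genes. RBM4B, another RNA-binding protein, changed by -4.03 over IgG, and for AHDC1, at 0 counts in siTDP43 IgG, no fold over IgG is given. ZC3H6 had 0.76 CPM in siTDP43 IgG, too few for a fold.

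Genes of proteins of nuclear speckles, the bodies in which MALAT1 gathers, made a list of 14. In WT IP over input 12 of the 14 rose and 1 fell, beside 30.2% and 27.3% of all genes. The list had a median log2 change of 3.55 beside 0.01 over all genes. DDX39B, among those that rose, averaged only 10.6 counts over the 17 libraries. It was not tested in the inputs or in the fits of siTDP43 alone. PPIG, a cyclophilin, rose from 41.3 to 2034 CPM (5.63) and PNISR from 50.8 to 1907 (5.24), whereas CLK1, a kinase of splicing factors, fell from 58.1 to 25.6 (-1.17). Over WT IgG 7 rose, DDX39B again among them, and 1 fell (median 1.08), beside 35.2% and 17.8% of all genes. In WT IgG over input 9 rose, beside 24.4%. In siTDP43 IP over input 6 of 13 rose (median 0.69), beside 26.8% of all genes. Among the 6 were SRRM2 (1.91) and SON (1.74), which organise speckles. Over siTDP43 IgG 4 rose and 2 fell, beside 34.0% and 15.0% of all genes. In siTDP43 IgG over input 5 rose and 2 fell, beside 24.7% and 41.0%.

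Enrichment of the speckle protein genes over input was lower in siTDP43 for 13 of 14 and higher for 1 (median -2.28 beside -0.19 over all genes). Of all genes, 36.3% were lower and 31.5% higher. Over IgG the enrichment of the list was lower for 8 and higher for 2 (median -1.46), beside 25.9% and 34.9% of all genes. SRRM2 changed by -2.40 and PNN by -2.37 over IgG, PNN from 2229 CPM in WT IP to 99.4 in siTDP43 IP, while SF3B1, a core spliceosome subunit, rose by 2.02. CLK1 had 0.78 CPM in siTDP43 IgG, too few for a fold. In the inputs 5 of 13 rose and 5 fell (median -0.01), beside 38.6% and 40.6% of all genes. SF3B1 (1.68) and BCLAF1 (1.11) went up and SRRM2 (-1.27) and PPIG (-0.82) down.

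Of 15 other long noncoding RNAs listed, 13 were tested in the inputs. In siTDP43 9 fell and 2 rose, beside 40.6% and 38.6% of all genes, and the list had a median log2 change of -0.81. SNHG1, a host of small nucleolar RNAs, fell from 1183 to 89.3 CPM (-3.72) and EPB41L4A-AS1 from 175 to 35.7 (-2.29), whereas OIP5-AS1 (0.92) and DANCR (0.38) rose. In WT IP over input 3 rose and 3 fell, beside 30.2% and 27.3% of all genes, and MIAT, among the 3 that rose, averaged 18.5 counts. KCNQ1OT1, the antisense RNA of an imprinted locus, rose from 2.49 to 65.2 CPM (4.72) and TUG1 by 1.05, and GAS5 (-1.97) and SNHG1 (-1.79) fell.

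Over WT IgG 3 of the long noncoding RNAs rose, beside 35.2% of all genes. FTX and MIAT, among the 3, averaged only 23.5 and 18.5 counts. In WT IgG over input 1 rose and 4 fell, FTX among those that fell, beside 24.4% and 36.6% of all genes. In siTDP43 IP over input 5 of 12 rose (median 0.82), beside 26.8% of all genes. Among the 5 were SNHG12 (2.06) and EPB41L4A-AS1 (1.60). Over siTDP43 IgG 4 rose, MIAT among them, beside 34.0% of all genes. In IgG over input 3 rose and 2 fell, MIAT among those that fell, beside 24.7% and 41.0%. Enrichment was higher in siTDP43 for 7 and lower for 5 over input, beside 31.5% and 36.3% of all genes. It was higher for 6 and lower for 4 over IgG, beside 34.9% and 25.9%. SNHG1 (1.77) and SNHG12 (1.58) rose there, while KCNQ1OT1 (-4.09) and CRNDE (-0.84) fell. KCNQ1OT1 was at only 2.65 CPM in siTDP43 IgG, the shallowest group, so its value (SE 0.54) rests on few counts.

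Genes of RNase P, which cuts the ends of MALAT1 and of the long NEAT1 form, and of RNase Z (ELAC2), which trims the small RNA released from MALAT1, changed in both directions. Of 11 tested in the inputs, 7 rose and 3 fell in siTDP43 (median 0.15), beside 38.6% and 40.6% of all genes. POP1 rose by 1.59 and ELAC2 by 1.11 on the log2 scale, from 11.6 to 34.8 and from 95.9 to 207 CPM, while RPP25 (-1.30) and RPP40 (-0.14) fell. In WT IP over input 2 of 12 rose and 4 fell, beside 30.2% and 27.3% of all genes. POP1 was at 1.43, RPP40 at -2.38 and POP4 at -1.36. Over WT IgG 2 rose and 1 fell, beside 35.2% and 17.8% of all genes. In WT IgG over input 2 rose and 3 fell, beside 24.4% and 36.6%. RPP21, which averaged only 29.3 counts, was among the 2 that rose over IgG and the 3 that fell here. RPPH1, at 48.6 counts on average, was among those that rose over input in both WT pull-downs. It was also the 1 that fell over WT IgG.

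In siTDP43 IP over input 3 of the RNase P and RNase Z genes rose and 1 fell, beside 26.8% and 25.4% of all genes. RPP25 rose by 2.56 and POP7 by 1.10, and RPP40 changed by -2.96. Over siTDP43 IgG 1 rose and 1 fell, beside 34.0% and 15.0% of all genes. The 1 that rose was RPPH1, which averaged only 48.6 counts and also rose over input in both siTDP43 pull-downs. In IgG over input 4 rose and 2 fell, beside 24.7% and 41.0%. Enrichment was higher in siTDP43 for 6 and lower for 2 over input, beside 31.5% and 36.3% of all genes. It was higher for 4 and lower for 6 over IgG, beside 34.9% and 25.9%. In the change over IgG, ELAC2 (1.01) and RPP30 (0.77) rose and POP1 (-2.46) and POP4 (-2.42) fell.

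**Figure D4:**
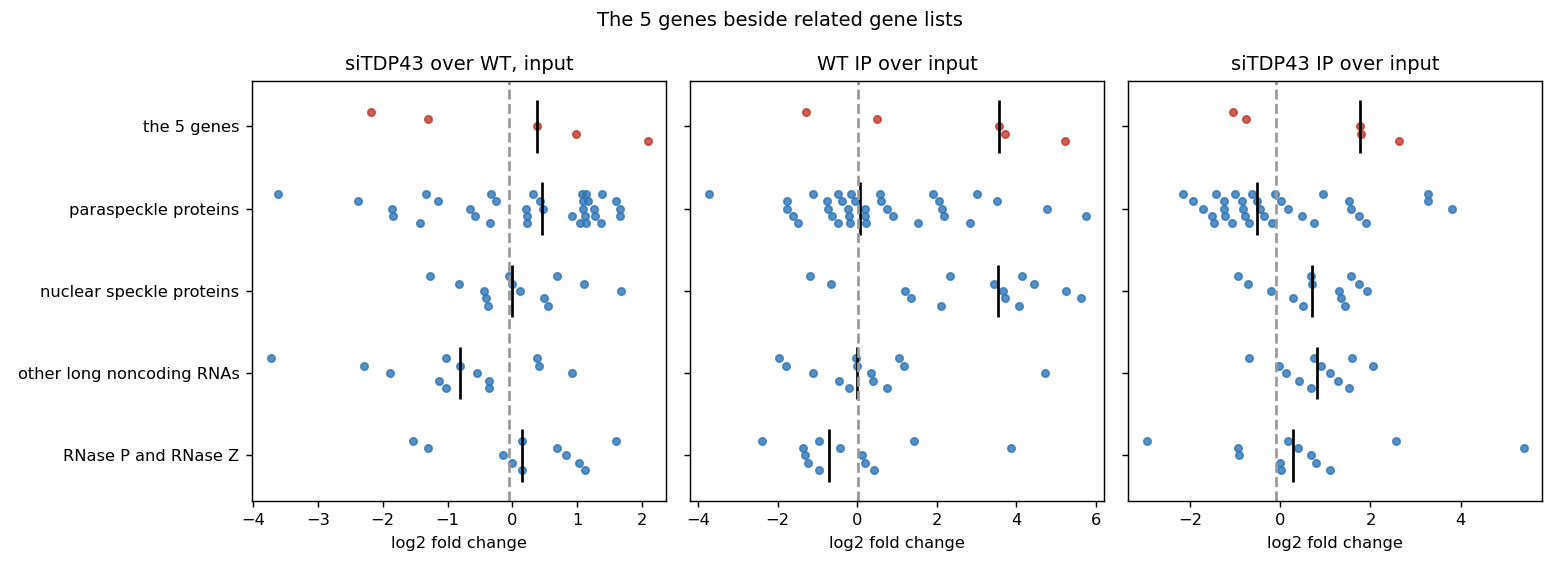
Fitted log2 fold changes of the 5 genes and of the tested genes of 4 lists in siTDP43 over WT input, WT IP over input and siTDP43 IP over input. Points are genes, black bars are the median of each row and the dashed line is the median of all genes tested. The nuclear speckle genes have a median of 3.55 in WT IP over input and 0.69 in siTDP43 IP over input.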

How the data were processed

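Libraries were grouped by their labels. The authors isolated poly(A) RNA, built Smart-seq2 libraries and ran Trim Galore 0.6.7 for trimming, then aligned with STAR 2.7.10a and counted uniquely aligned reads with featureCounts 2.0.2, as the submitters' processing notes and methods say. The deposited values are raw counts per gene. The notes name mm10, but the methods name hg19 for these cells, and 96.3% of 198975 introns in the table had GT and AG ends in GRCh37. Strand setting, handling of read pairs and annotation release are not given in the sources used here. Even numbers made up 81.3 to 95.9% of the counts from 1 to 20, as when both mates of a fragment are counted. No molecular identifiers were used.

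Counts were tested with edgeR 4.0.16 (R 4.3.3), quasi-likelihood F test, TMM and filterByExpr with a minimum count of 10, with Benjamini-Hochberg adjustment over all genes tested. The inputs were fitted alone, each genotype's enrichment in its own fit and the changes of enrichment in all 17 libraries. Calls needed an adjusted p under 0.05 and, for IP and IgG comparisons within a genotype, a fold above 2. The edgeR tests of the inputs, of IP over input and of the change over input were tried on simulated data, and the other tests were not. Ratios within a library were tested by an exact permutation (scipy 1.17.1). Alternatives were DESeq2 1.42.0, its size factors, total count scaling, other filters, other library sets, halved counts, removal of a GC trend, limma 3.58.1 on log2(FPKM + 1), the replicate number as a block, and each library left out. Likeness used log2(CPM + 1), genes averaging 100 counts or more and the 3 highest correlations. In each list up to 2 risen and 2 fallen genes were named, those that moved most among called genes averaging 100 counts or more, in the inputs, IP over input and the change over IgG. A gene that this rule gives is not reported here and was not replaced. The genes, lists, tests and alternatives were chosen with earlier results of these data known. No use was made of the acetylated spike-in, and enrichment has no absolute scale. Replicates were not duplicates of each other (chi-square of 3.26 to 9.43 per degree of freedom).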

Additional observations from a re-analysis of the deposited data

Results flagged for a closer look

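The enrichment of 4 of the 5 genes differed between the genotypes by the interaction test of edgeR over 17 libraries, and each is given as the log2 enrichment in siTDP43 minus that in WT. Over input the difference was -3.61 for NEAT1, -1.91 for MALAT1, -1.22 for SFPQ and -1.42 for NONO. Over IgG it was -6.38 for NEAT1, -1.06 for MALAT1, -1.63 for SFPQ and -0.60 for NONO. The median of all genes was -0.19 over input and 0.24 over IgG. The NEAT1 value over IgG joins a WT IgG level of 13.7 ± 1.97 CPM (SD, n = 2) with a siTDP43 IgG level of 38.1 ± 3.41 (SD, n = 3). The groups have too few libraries for a test of outlying libraries.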

How the results depend on the processing

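Each of the 45 fitted values of the 5 genes was recomputed under every alternative, 935 times in all. In 907 the direction and the side of the threshold were as reported, and 31 of the 45 values held in every alternative run. Removing the GC trend gave SFPQ 0.49 and NONO -0.23 in WT IP over IgG, NEAT1 1.49 (now called) in WT IgG over input, PSPC1 -0.77 in siTDP43 IP over input, MALAT1 -0.55 in siTDP43 IP over IgG, NONO 0.10 and PSPC1 -0.96 in siTDP43 IgG over input, and PSPC1 0.35 in the change over input. Total count scaling gave, in siTDP43, NONO -1.10 in IP over input and -1.16 in IgG over input (both now called), NONO 0.0667 and PSPC1 1.07 (now called) in IP over IgG and MALAT1 0.87 in IgG over input, and PSPC1 -0.19 in the change over input. A mean of at least 50 counts gave PSPC1 -0.96 in siTDP43 IP over input. NONO in WT IgG over input, reported as 0.00, was -0.0118 with DESeq2, -0.0119 with its size factors, -0.0214 with total count scaling, -0.0228 with all 17 libraries in the fit, -0.0369 with no filter, and -0.0242 to 0.0191 with each library left out. The PSPC1 change was -0.0173 over input with limma, and over IgG -0.12 with DESeq2 and with its size factors, and -0.11 to 0.38 with each library left out, the lowest without siTDP43 IgG replicate 2. PSPC1 in siTDP43 IP over IgG was 0.65 to 1.13 with each library left out. The log2 ratio of NEAT1 to MALAT1 in siTDP43 IP over input, reported as 0.00, was -0.19 to 0.12 with each library left out. Without a change of call, the log2 values of siTDP43 ranged over the alternatives from 1.03 to 1.93 for NEAT1 in IP over input and from 2.64 to 4.50 in IgG over input, and the NONO change over IgG from -0.82 to -0.22. The cause of these changes was not tested. Without a WT IgG library the group holds 1, assumed to vary like the other groups. Replicate numbers did not mark shared samples (40 correlations of same-numbered deviations were -0.02 to 0.07), and adding them as a replicate block changed 0 of the 45 calls, with NEAT1 -1.32 in the inputs.

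Counts of list genes moved past 1.5 times in 96 of 1496 recomputations. Total count scaling moved the median of all genes in siTDP43 IP over input from -0.09 to -0.43 and in siTDP43 IgG over input from -0.58 to -1.13, and the share of calls that were higher from 51.3 to 39.1% and from 37.6 to 26.9%. Removal of the GC trend moved that share from 66.4 to 41.6% in WT IP over IgG, 40.0 to 56.7% in WT IgG over input, 69.4 to 47.0% in siTDP43 IP over IgG, 37.6 to 53.2% in siTDP43 IgG over input and 46.4 to 56.6% for the change over input. The lower calls went from 2629 to 5129 in WT IP over IgG and from 1913 to 3600 in siTDP43 IP over IgG. Within a genotype limma called fewer genes than edgeR: 2748 against 4459 higher in WT IP over input, 3017 against 5186 higher in WT IP over IgG, 3346 against 5400 lower in WT IgG over input, 2236 against 3414 higher and 1959 against 3239 lower in siTDP43 IP over input, and 2663 against 4328 higher in siTDP43 IP over IgG. In the change over IgG limma called more, 5908 against 5293 higher and 5362 against 3923 lower. In the change over input it called 4435 against 4770 higher and 5906 against 5511 lower. DESeq2 moved the median of all genes in the change over IgG from 0.24 to -0.13 and the lower calls from 3923 to 5432. Depth limits NEAT1, at 70 to 124 counts in each siTDP43 library, and PSPC1, at 55 to 127 in siTDP43 IgG. The fragments were fewer if both mates were counted.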
